A study of Mus musculus with 16 samples.

Results

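The genes described here encode the protein components of the mitochondrial ribosome. They were taken from a table of raw RNA-seq read counts by name: every gene whose mouse symbol starts with Mrpl or Mrps and a number, with a mean level of at least 1 CPM (counts scaled to the size of the library) over all 16 libraries, pseudogenes left out. Of the 27179 genes in the table, 78 carried such a name and 77 met the rule. Mrpl36 was the 1 gene under the minimum, at 0.116 CPM. The name rule used no comparison between groups.

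RNA came from iBMDM MyD88-AGF cells, which are mouse macrophages grown from bone marrow and immortalised as a line, with the genotype label MyD88-AGF WT, which all 4 groups share. Cells were left untreated or received lipopolysaccharide (LPS, a component of bacterial outer membranes that the receptor TLR4 detects) at 10 ng/mL for 6 h. LPS-treated cells in the high side-scatter gate of a cell sorter were named responders, and those in the low gate bystanders, side scatter being light deflected by structures inside a cell. An LPS-treated pool and the untreated cells ran through the sorter with no gate, after the gated samples had been collected. The order of collection and the gate therefore cannot be told apart where gated and ungated groups are compared. Each group had 4 libraries. No label says that the libraries of a group came from separate cultures, and each p-value therefore reflects the spread among the libraries at hand, which may be of technical origin. In these bulk samples, fewer cells of a type and less RNA per cell cannot be told apart.

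Mitochondria keep a small genome of their own and translate its messenger RNAs on a dedicated ribosome. That ribosome has a small subunit, which reads the message, and a large subunit, which joins the amino acids. Its RNA is made inside the organelle, whereas all of its proteins are encoded in the nucleus, made in the cytosol and imported. Some of the proteins descend from those of the bacterial ribosome, and others were added in the mitochondrial line. In macrophages, LPS is known to move energy metabolism from respiration towards glycolysis.

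Library totals ran from 15287344 to 25193162 counts, and the members' counts from 134 to 3649 in single libraries. All 10 macrophage markers had reads in every group, with a summed level of 4620 to 5430 CPM. In 6 libraries (untreated 1, pool 3 and 4, bystander 3 and 4, responder 1) the neural transcript Stmn2 had 59 to 88 reads, against at most 6 in the other 10. These 6, called Stmn2-rich below, are set apart by that transcript alone, and other markers were not used for the split. The whole list had 18 neural markers, of which 15 to 17 had reads in a group. In order of replicate, it summed to 252, 225, 229 and 225 CPM in responders and 262, 264, 272 and 258 CPM in the pool. The sums were 391, 391, 404 and 404 CPM in bystanders and 524, 482, 507 and 494 CPM in untreated cells. Markers of fibroblasts were highest in replicate 3 of every group, where 6 markers summed to 35.9 CPM in untreated cells, 98.9 CPM in the pool, 78.6 CPM in bystanders and 27.1 CPM in responders, against 1.98 to 23.9 CPM in the other 12 libraries. Counts of calls without either set of libraries are given beside the results. All 77 members passed the filter on low counts, and the median coefficient of variation of a member within a group was 3.68%, the highest 14.1%.

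The 77 members comprised 26 proteins of the small subunit, 50 of the large subunit and Mrps36. Mrps36 carries a ribosomal name, but its product is known as an adaptor of the oxoglutarate dehydrogenase complex, so it was placed in neither subunit. Mrps30 and Mrps18a also carry small-subunit names, yet their products sit in the large subunit and were counted there. By CPM scaled with the trimmed mean of M-values (TMM), the mean over all libraries ran from 9.93 for Mrps17 to 148 for Mrpl17. Levels can be compared between genes only per length, here CPM per kilobase of the principal annotated transcript. On that scale Mrpl52, a mitochondrial addition to the large subunit, was highest at 199, Mrps17, homologous to bacterial S17, was lowest at 1.65, and the median was 34.5. The value of Mrpl52 is a mean over groups that differed widely. It was at 35.5 CPM in untreated cells and 38.8 CPM in bystanders, against 127 CPM in the pool and 131 CPM in responders. Its first rank therefore does not hold for untreated cells, where Mrpl42, with 679 bases, was at 84.0 CPM. Per-length levels at the 90th and the 10th percentile differed 5.88-fold. These ranks rest on the annotated ends: the transcript used for Mrpl52 has 418 bases and the one for Mrpl17 7300 bases, which puts Mrpl17 at rank 56 per length.

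Promoters of 4 members are shown because these genes had the highest or lowest folds for responder against bystander described below. Each window is the 250 bases before the RefSeq gene start in GRCm38.p6, written in the direction of transcription: chr14:54426659-54426908, plus strand, for Mrpl52; chr7:105811088-105811337, minus strand, for Mrpl17; chr16:92058086-92058335, plus strand, for Mrps6; and chr13:99344536-99344785, plus strand, for Mrps27, whose window ends 19 bases inside the span annotated for the gene. The genes themselves (Entrez identifiers 68836, 27397, 121022 and 218506, all protein-coding) span chr14:54426909-54429750, chr7:105803782-105811087, chr16:92058336-92112227 and chr13:99344767-99415562 in the same build and order. Capitals mark matches to the ETS core CCGGAAG, which GABP binds, or to the NRF1 palindrome (GCGCA, any base, then GCGC), on either strand.
Mrpl52: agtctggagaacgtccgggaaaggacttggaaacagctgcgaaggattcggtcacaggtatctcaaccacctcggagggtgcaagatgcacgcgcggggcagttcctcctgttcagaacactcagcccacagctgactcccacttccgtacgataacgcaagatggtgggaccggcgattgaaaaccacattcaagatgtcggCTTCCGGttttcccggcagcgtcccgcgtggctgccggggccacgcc
Mrpl17: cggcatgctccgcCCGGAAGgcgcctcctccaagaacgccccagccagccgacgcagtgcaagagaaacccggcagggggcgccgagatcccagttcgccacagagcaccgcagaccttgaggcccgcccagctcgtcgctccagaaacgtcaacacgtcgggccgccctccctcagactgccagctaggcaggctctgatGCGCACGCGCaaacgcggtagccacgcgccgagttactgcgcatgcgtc
Mrps6: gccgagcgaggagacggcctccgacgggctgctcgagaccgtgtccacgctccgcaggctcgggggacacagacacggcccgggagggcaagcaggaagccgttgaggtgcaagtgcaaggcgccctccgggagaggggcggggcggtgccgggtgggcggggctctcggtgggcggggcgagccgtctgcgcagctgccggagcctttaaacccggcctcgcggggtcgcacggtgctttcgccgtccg
Mrps27: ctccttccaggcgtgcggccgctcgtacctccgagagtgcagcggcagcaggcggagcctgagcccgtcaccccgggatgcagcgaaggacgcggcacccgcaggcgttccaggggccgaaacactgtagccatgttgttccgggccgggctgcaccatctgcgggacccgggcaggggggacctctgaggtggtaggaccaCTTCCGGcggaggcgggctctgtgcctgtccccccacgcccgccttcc
Mrpl52 and Mrps27, which moved in opposite directions, each held 1 ETS match on the reverse strand near the gene start. Mrpl17 held 1 NRF1 and 1 ETS match, and the window of Mrps6 held none of the letters searched. Promoters were found for 68 of the 77 members. The NRF1 letters were in 10 of these, or 14.7%, against 3.87% of all 27025 promoters of this length, and the ETS letters in 16, or 23.5%, against 7.07%. AAGATGGCG (YY1) was in 1 member, 1.47% against 0.592% of all promoters. CACGTG (the E-box bound by Myc) was in 4 members, 5.88% against 6.04%. An NF-kappaB sequence (GGG, any 2 bases, then TTTCC) was in 0 members, against 1.41% of all promoters. The median GC content of the members' windows was 58.4% and that of all promoters 52.0%. The NRF1 and ETS letters are themselves rich in G and C, and the YY1 letters can share AAG with an ETS match. All members passed the filter on low counts, whereas the set of all promoters was not limited to the 12589 genes that passed it.

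Most members moved little between responders and bystanders, and Mrpl52 stood alone in size. By edgeR's quasi-likelihood test with Benjamini-Hochberg adjustment over 12589 genes, at an adjusted p under 0.05, 41 of the 77 members were higher in responders (53.2%, background 34.7% of all genes) and 14 were lower (18.2%, background 35.3%). Counting either direction, 71.4% of the members passed (background 70.0%). This balance turns with the scaling: with library totals alone in place of TMM, 12 members were higher and 39 lower, while the share of all called genes that were higher dropped from 49.5% to 27.8%. The median log2 fold of the members was 0.105 with TMM and -0.0848 with library totals, while the median of all genes tested was -0.0096 and -0.200. The members' median stood 0.115 above the median of all genes, a distance that scaling cannot change, since it shifts all genes alike. The 4 responder libraries lay above all 4 bystander libraries for 31 of 77 members (background 3998 of 12589 genes, 31.8%). They lay below them for 11 of 77 (background 4049 of 12589 genes, 32.2%). The fold stayed under 0.5 on the log2 scale for 73 of 77 members, against 8621 of all 12589 genes. In 1 member, Mrpl52, the change was at least 2-fold (background 11.2% of genes). Without the 6 Stmn2-rich libraries, 35 members were higher and 10 lower. Without replicate 3 of each group, 39 were higher and 12 lower.

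**Figure D1:**
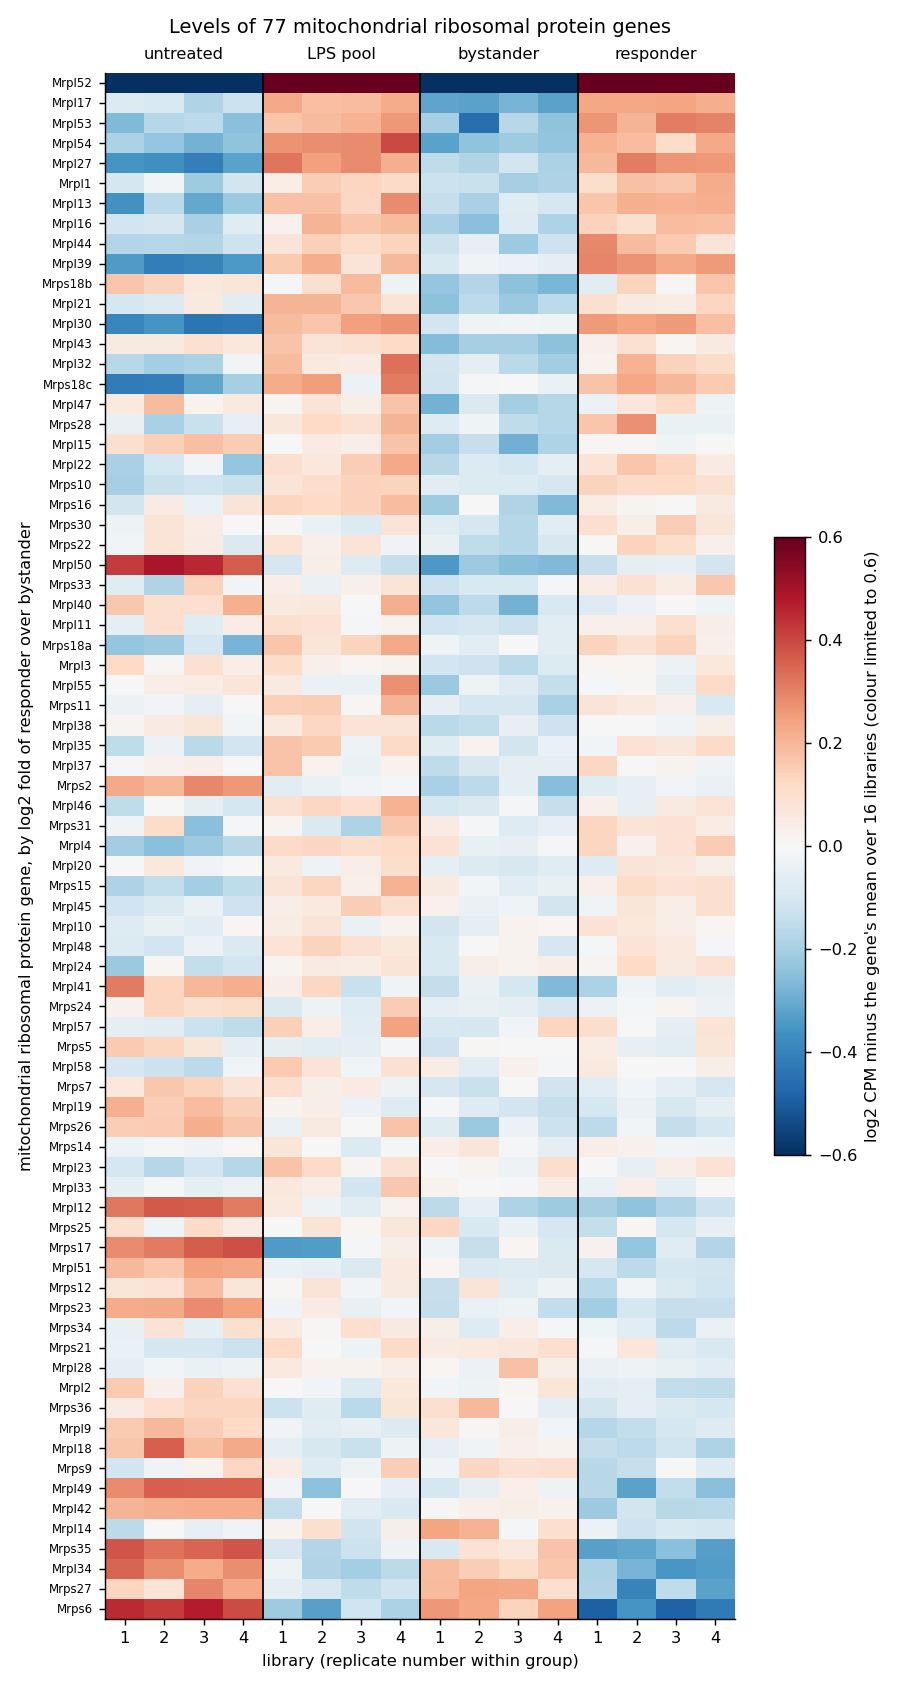
Log2 CPM (TMM-scaled) of the 77 genes in the 16 libraries, each gene minus its own mean, with genes as rows ordered by the fold of responder over bystander and libraries as columns. Mrpl52 is high in the pool and the responders and Mrps6 is low in both, also under library-total scaling, whereas the balance of higher and lower rows turns under that scaling.

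The large-subunit gene Mrpl52 gave the largest fold of the set. Its level was 39.7, 36.2, 38.3 and 40.9 CPM in the bystander libraries and 123, 133, 137 and 132 CPM in the responder libraries. It was 36.5, 33.2, 35.8 and 36.5 CPM in the untreated libraries and 126, 124, 123 and 137 CPM in the pool. Responder and pool libraries formed a high set that did not overlap the low set of bystander and untreated libraries. Responders exceeded bystanders 3.37-fold (log2 1.75, SE 0.038, edgeR adjusted p = 1.52e-41), and Mrpl52 ranked 272 among the 12589 genes by this fold. The pool exceeded untreated cells 3.58-fold (log2 1.84, SE 0.040, edgeR adjusted p = 3.00e-42). Bystanders were 1.09-fold above untreated cells, with overlapping libraries (edgeR adjusted p = 0.0107), a call that did not hold with library totals. Mmp14, a matrix metalloproteinase gene, lies 1855 bases downstream of Mrpl52 on the same strand, shares no exon with it and had 0.246 to 4.22 CPM in the 16 libraries.

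Mrpl17, homologous to bacterial L17, had the second largest rise. It stood at 118, 118, 121 and 117 CPM in bystanders and at 172, 172, 173 and 170 CPM in responders, with no overlap. The fold was 1.45 (log2 0.54, SE 0.026, edgeR adjusted p = 1.08e-27). Untreated libraries lay between them, at 139, 137, 129 and 134 CPM, so Mrpl17 was above untreated cells in responders (log2 0.35) and below them in bystanders (log2 -0.19). Mrpl21, also of bacterial descent and named after its values were seen, was the other member called higher in responders and lower in bystanders against the same untreated libraries. With library totals neither gene was called higher in responders than in untreated cells.

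Other large-subunit proteins rose by smaller amounts. Mrpl53, a mitochondrial addition, was at 27.3, 23.0, 27.9 and 26.5 CPM in bystanders and 37.8, 36.2, 38.8 and 38.6 CPM in responders, without overlap (log2 0.52, SE 0.050, edgeR adjusted p = 3.01e-14). Mrpl54, another addition, was at 26.5, 27.9, 28.5 and 28.1 CPM against 38.2, 37.6, 35.7 and 38.7 CPM, also without overlap (log2 0.43, SE 0.047, edgeR adjusted p = 2.43e-12). Mrpl27, homologous to the bacterial L27 that reaches towards the peptidyl transferase centre, was at 42.3, 41.3, 43.5 and 41.1 CPM against 53.7, 58.0, 56.3 and 56.1 CPM. Its fold was log2 0.41 (SE 0.040, edgeR adjusted p = 2.74e-14), and the groups did not overlap. Mrpl1, the protein of the L1 stalk, rose by log2 0.33, Mrpl39, which resembles threonyl-tRNA synthetase in sequence, by 0.31, and Mrpl30, homologous to bacterial L30, by 0.27. All 3 had responder libraries entirely above bystander libraries. These 8 genes were called higher under each of the 3 scalings tried, TMM, DESeq2 size factors and library totals. In all, 12 members were (15.6%, against 20.5% of all genes tested), every one of the large subunit.

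The genes that fell were led by the small subunit. Mrps6, homologous to bacterial S6, was at 41.0, 40.2, 37.6 and 40.5 CPM in bystanders and 24.4, 26.8, 24.5 and 25.5 CPM in responders. The groups did not overlap, and responders were 1.57-fold lower (log2 -0.65, SE 0.049, edgeR adjusted p = 1.68e-18). Mrps6 shares 159 exon bases on the same strand with Slc5a3, a myo-inositol transporter gene that was also lower in responders (log2 -0.60, SE 0.056, edgeR adjusted p = 1.81e-14). Its part in the Mrps6 value was not tested. Mrps27, a pentatricopeptide-repeat protein, was at 33.8, 35.0, 34.8 and 31.7 CPM in bystanders and 26.2, 22.5, 26.7 and 23.7 CPM in responders, without overlap (log2 -0.45, SE 0.054, edgeR adjusted p = 6.25e-11). Mrps35, a mitochondrial addition, was at 21.7, 24.6, 24.2 and 26.1 CPM against 18.5, 18.7, 19.5 and 18.4 CPM, again without overlap (log2 -0.37, SE 0.057, edgeR adjusted p = 5.43e-08). Among large-subunit genes, Mrpl34, homologous to bacterial L34, fell most, from 41.0, 39.9, 39.0 and 40.3 CPM to 31.6, 29.7, 28.3 and 28.7 CPM, with no overlap (log2 -0.44, SE 0.047, edgeR adjusted p = 2.48e-12).

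Smaller falls were measured for Mrpl14 (log2 -0.22), whose protein binds an assembly factor during maturation of the large subunit, and for Mrpl42 (-0.19) and Mrpl49 (-0.19), both mitochondrial additions. The libraries of the 2 gates did not overlap for any of these 3. All 14 members called lower with TMM were also called lower under the other 2 scalings (18.2%, against 34.8% of all genes tested).

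**Figure D2:**
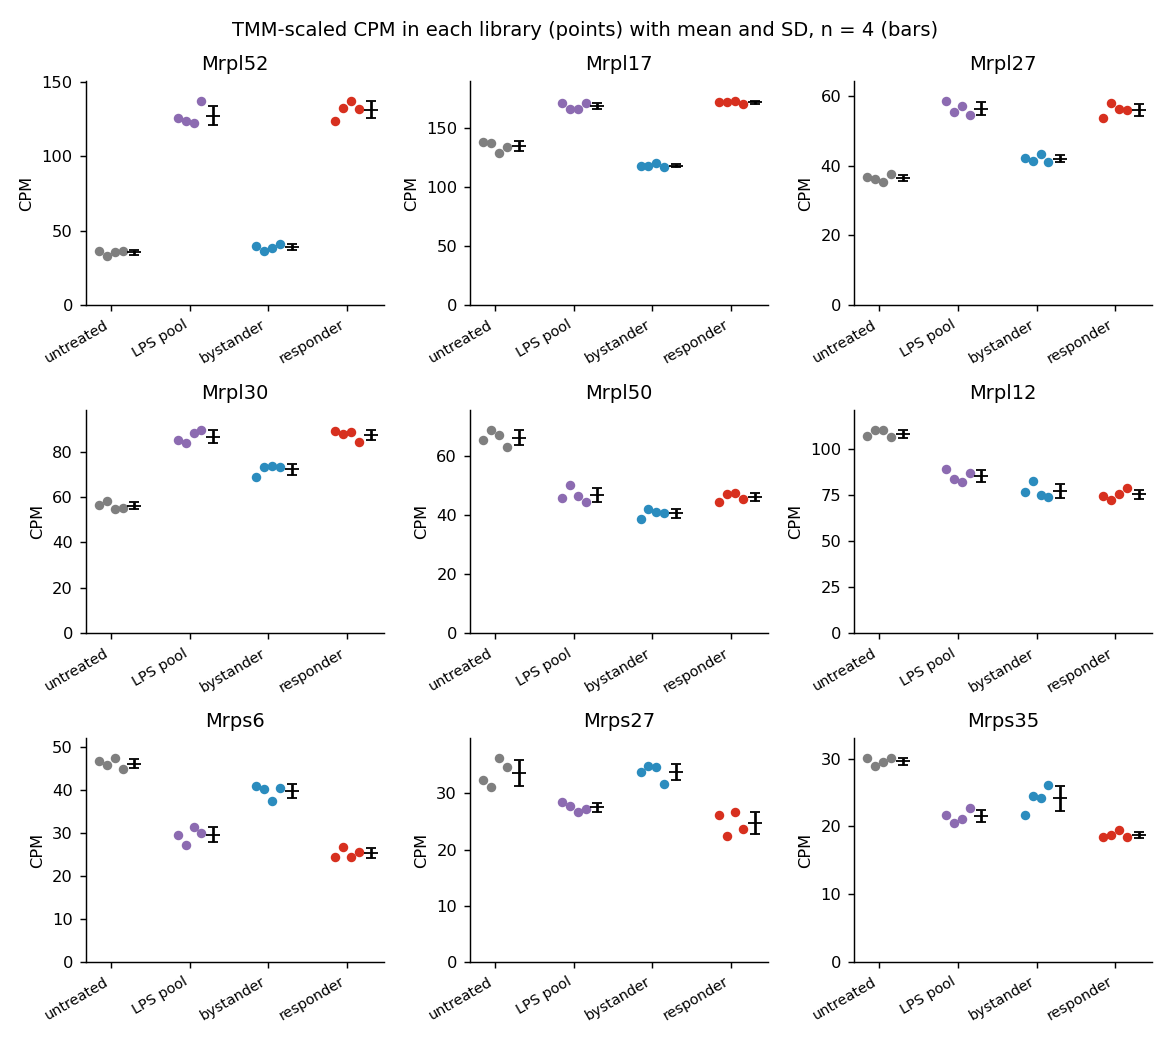
TMM-scaled CPM of 9 members in each library (points, 4 per group) with mean and SD (bars), 1 panel per gene, linear axes from 0. Mrpl52 separates pool and responder from untreated and bystander libraries, Mrpl17 is lowest in bystanders, Mrpl50 and Mrpl12 are highest in untreated cells, and Mrps6 and Mrps35 are lowest in responders.

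The 3 paralogs related to bacterial S18 did not share 1 pattern. Mrps18c, the counterpart that takes the place of bacterial S18, was at 40.1, 43.3, 43.6 and 42.3 CPM in bystanders and 48.99, 51.1, 50.03 and 48.6 CPM in responders (log2 0.23, SE 0.051, edgeR adjusted p = 0.000149). Mrps18b was at 20.04, 20.9, 19.8 and 19.4 CPM against 22.5, 25.8, 23.7 and 26.4 CPM (log2 0.30, SE 0.058, edgeR adjusted p = 6.89e-06). Mrps18a, of the large subunit, was at 80.1, 77.7, 81.4 and 77.6 CPM against 89.4, 86.7, 89.5 and 83.3 CPM (log2 0.14, SE 0.034, edgeR adjusted p = 0.000379). Each pair of groups was free of overlap on the TMM scale, but with library totals none of these 3 calls held, and Mrps18a turned to log2 -0.0533 (edgeR adjusted p = 0.16). Against untreated cells the paralogs parted: in the pool Mrps18c was higher by log2 0.53 and Mrps18a by 0.36 (a call lost with library totals, at 0.0272), while Mrps18b was at -0.0424 with overlapping libraries (edgeR adjusted p = 0.516). The difference between the paralogs was not tested.

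Other members chosen for their roles gave small folds between the gates, and 3 of these 5 did not pass the test with TMM. Mrpl12, the stalk protein that recruits translation factors and also binds the mitochondrial RNA polymerase, was at 76.8, 82.9, 75.3 and 74.0 CPM in bystanders and 74.6, 72.6, 75.6 and 78.7 CPM in responders (edgeR adjusted p = 0.450, overlapping). Mrps12, the decoding-centre protein homologous to bacterial S12, was at log2 -0.0568 (edgeR adjusted p = 0.311). Mrpl58, a peptidyl-tRNA hydrolase built into the large subunit, was at log2 0.0253 (edgeR adjusted p = 0.634). With library totals these 3 were called lower in responders: Mrpl12 at log2 -0.22, Mrps12 at -0.247 and Mrpl58 at -0.165. The median of all genes was then -0.2. Mrps30, a large-subunit protein also known as PDCD9, rose by log2 0.19 (edgeR adjusted p = 1.40e-05), with no overlap, but stood at 0.00406 with library totals. Mrps36, the dehydrogenase adaptor, was at log2 -0.14 with overlapping libraries (edgeR adjusted p = 0.0224). That call was lost on leaving out bystander replicate 1, bystander replicate 2, responder replicate 1 or responder replicate 4, where the adjusted p ran from 0.0578 to 0.13. Mrps36 has pseudogenes in the RefSeq table, so its counts are uncertain.

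Between the pool and untreated cells, which shows the LPS response without a gate, 30 of 77 members were higher (39.0%, background 34.1% of all genes) and 21 lower (27.3%, background 37.8%) by edgeR at an adjusted p under 0.05, or 66.2% in either direction (background 71.9%). With library totals alone the counts turned to 7 higher and 58 lower, the share of all called genes that were higher dropping from 47.4% to 21.6%. The median log2 fold of the members was 0.043 with TMM and -0.285 with library totals, against -0.0303 and -0.358 for all genes, so it stood 0.0733 above the median of all genes with TMM. Without the 6 Stmn2-rich libraries, 30 members were higher and 19 lower, and without replicate 3 of each group, 31 were higher and 17 lower. The pool libraries lay above all untreated libraries for 30 of 77 members (background 3899 of 12589 genes, 31.0%). They lay below them for 16 of 77 (background 4273 of 12589 genes, 33.9%). The fold stayed under 0.5 on the log2 scale for 69 of 77 members, against 8060 of all 12589 genes.

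After Mrpl52, the highest folds in the pool were those of Mrpl27 and Mrpl30. Mrpl27 rose from 36.7, 36.3, 35.3 and 37.5 CPM in untreated cells to 58.5, 55.5, 57.2 and 54.6 CPM in the pool, without overlap (log2 0.63, SE 0.041, edgeR adjusted p = 2.77e-21). Mrpl30 rose from 56.7, 58.1, 54.8 and 55.3 CPM to 85.0, 83.6, 88.3 and 89.5 CPM, without overlap (log2 0.62, SE 0.034, edgeR adjusted p = 1.53e-24). Mrpl54 and Mrpl39 followed, each at log2 0.54, then Mrps18c at 0.53, the highest of the small subunit. Mrpl53 rose by 0.42, Mrpl17 by 0.32, Mrpl1 by 0.22 and Mrpl58 by 0.18 with TMM. With library totals the call for Mrpl53 was lost at 0.0874, and 3 folds turned: Mrpl17 to -0.00598, Mrpl1 to -0.111 and Mrpl58 to -0.151. Members called higher in the pool under all 3 scalings numbered 7 (9.09%, against 17.6% of all genes tested): Mrpl13, Mrpl27, Mrpl30, Mrpl39, Mrpl52, Mrpl54 and Mrps18c.

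Mrps6 fell most in the pool, from 46.7, 45.8, 47.4 and 44.9 CPM in untreated cells to 29.5, 27.3, 31.5 and 30.1 CPM. The groups did not overlap (log2 -0.65, SE 0.048, edgeR adjusted p = 8.04e-19), and the overlapping Slc5a3 fell by 1.18 on the log2 scale (SE 0.054, edgeR adjusted p = 9.05e-29). Mrps17 was at 11.9, 12.2, 12.6 and 12.8 CPM in untreated cells and 7.74, 7.79, 9.75 and 10.1 CPM in the pool (log2 -0.50, SE 0.088, edgeR adjusted p = 1.02e-06), without overlap, pool replicates 1 and 2 being lowest. Mrpl50, a mitochondrial addition to the large subunit, fell from 65.5, 68.8, 67.2 and 63.0 CPM to 45.8, 50.2, 46.6 and 44.6 CPM, with no overlap (log2 -0.49, SE 0.041, edgeR adjusted p = 6.52e-17). Mrps35 fell by 0.47, Mrpl34 by 0.43, Mrpl49 by 0.42, Mrpl12 by 0.34, Mrpl42 by 0.29 and Mrps27 by 0.29 on the log2 scale, each with pool libraries entirely below untreated ones. Mrps36 was lower by log2 -0.18 with overlapping libraries (edgeR adjusted p = 0.00475), a call lost without replicate 3 of each group (edgeR adjusted p = 0.068). Mrpl14, Mrps12, Mrps18b and Mrps30 did not pass the test with TMM (edgeR adjusted p from 0.203 to 0.516). With library totals they were called lower, at log2 -0.259, -0.398, -0.37 and -0.362, where the median of all genes was -0.358. Without pool replicate 3, Mrpl14 passed the test with TMM at log2 0.114 (edgeR adjusted p = 0.0499). A total of 20 members were called lower in the pool under all 3 scalings (26%, against 35.5% of all genes tested).

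**Figure D3:**
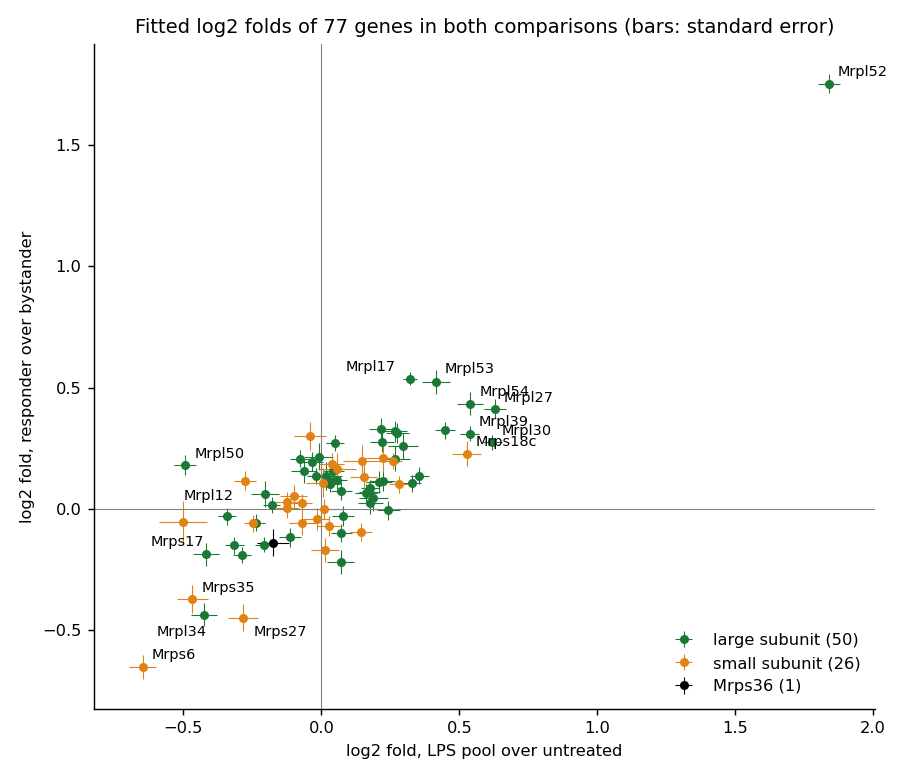
Fitted log2 fold (TMM scaling) of responder over bystander (vertical) against pool over untreated (horizontal) for each of the 77 genes, with standard errors as bars and subunits in colour; the comparisons share no library. Mrpl52 sits alone at 1.84 and 1.75, Mrps6 at -0.65 in both, and Mrpl50 is above 0 on 1 axis and below 0 on the other; library-total scaling moves the points down and to the left, which takes Mrpl50 below 0 on both axes.

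Responder against bystander and pool against untreated have no library in common. Of the members called higher, 24 were called higher in both, which is 58.5% of the 41 and 80% of the 30. Over all genes tested, the shared calls made up 66.3% and 67.5% of the corresponding lists. Of the members called lower, 10 were called lower in both, or 71.4% of the 14 and 47.6% of the 21, against 65.3% and 61% over all genes. Under all 3 scalings, 6 members were called higher in both comparisons, of the 12 and the 7 called higher in each, and over all genes 1375, of 2580 and 2216. The 10 members called lower in both were so under all 3 scalings: Mrpl2, Mrpl9, Mrpl18, Mrpl34, Mrpl42, Mrpl49, Mrps6, Mrps27, Mrps35 and Mrps36. Opposite calls were found with TMM for 4 members: Mrpl15, Mrpl50 and Mrps2 were higher in responders but lower in the pool, and Mrps21 was lower in responders but higher in the pool. Mrpl15, Mrps2 and Mrps21 are named after their values were seen. None of the 4 had opposite calls under all 3 scalings, and with library totals Mrpl15, Mrpl50 and Mrps2 were not called higher in responders and Mrps21 was not called higher in the pool. For Mrpl50, bystander libraries were at 38.6, 42.2, 41.0 and 40.8 CPM and responder libraries at 44.5, 47.2, 47.4 and 45.4 CPM (log2 0.18, SE 0.043, edgeR adjusted p = 0.000151), while untreated libraries were above both. With library totals the responder fold of Mrpl50 was log2 -0.0092.

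Set against untreated cells, the gates differed in their balance. In responders, 29 members were higher (37.7%, background 36.5%) and 26 lower (33.8%, background 38.5%), close to the background in both directions. In bystanders, 14 were higher (18.2%, background 34.1%) and 37 lower (48.1%, background 32.9%). The bystander libraries lay below all untreated libraries for 31 members (background 29.7%) and above them for 11 (background 31.0%). With library totals both gates were mostly lower, at 6 higher and 67 lower in responders and 2 higher and 62 lower in bystanders. Bystanders were mostly lower with TMM as well. The share of all called genes that were higher dropped from 48.7% to 21.7% in responders and from 50.9% to 27.5% in bystanders. Relative to the median of all genes, the members' median stood at 0.0448 in responders and at -0.0966 in bystanders. Both comparisons use the same untreated libraries, so their values are given side by side only. Mrpl50 had the largest fall in bystanders, to 40.65 ± 1.5 CPM (SD, n = 4) from 66.1 ± 2.48 CPM in untreated cells (log2 -0.70, SE 0.040, edgeR adjusted p = 9.93e-24), and stood at log2 -0.52 in responders. Mrps6 had the largest fall in responders (log2 -0.87, SE 0.048, edgeR adjusted p = 6.18e-25) and stood at -0.22 in bystanders. Mrpl12 was at -0.52 in responders and -0.49 in bystanders, and Mrps27 at -0.44 in responders and 0.00647 in bystanders (edgeR adjusted p = 0.919). Mrpl30 and Mrpl39 were the members called higher in bystanders under all 3 scalings, 2 in all (2.60%, against 19.8% of all genes tested), while 34 were called lower under all 3 (44.2%, against 31.7%).

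On TMM-scaled means, the pool was nearer to the responders than to the bystanders for 60 of 77 members, or 77.9%, a share near that of all genes tested, 78.0%. It lay between the gates for 32 members, or 41.6%, against 53.1% of all genes. Untreated cells had the highest mean of the 4 groups for 28 members and the lowest for 25. Bystanders had the lowest mean for 31 members and the highest for 6, and the pool the lowest for 2 and the highest for 26. These orders were not counted over all genes, and they depend on the scaling. With library totals, 58 members were called lower in the pool, 67 in responders and 62 in bystanders than in untreated cells. Between the gates, 39 were then called lower in responders and 12 higher.

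Calls are given here for each subunit, and the difference between the subunits was not tested. Between responders and bystanders, where 34.7% of all genes were higher and 35.3% lower, 31 of 50 large-subunit genes were higher (62.0%) and 8 lower (16%), with a median log2 fold of 0.118. Of 26 small-subunit genes, 10 were higher (38.5%) and 5 lower (19.2%), with a median of 0.0264. With library totals these became 12 higher and 22 lower in the large subunit, and 0 higher and 16 lower in the small. In the pool against untreated cells, where 34.1% of all genes were higher and 37.8% lower, 24 large-subunit genes were higher (48.0%) and 12 lower (24.0%), with a median of 0.075. There, 6 small-subunit genes were higher (23.1%) and 8 lower (30.8%), with a median of -0.00523. Library totals turned these to 6 higher and 35 lower, and 1 higher and 22 lower, while the median of all genes went from -0.0303 to -0.358. Of the 10 mitochondrial additions to the small subunit, 0 were called higher in the pool and 4 lower (40.0%), the latter close to the share of all genes. Under library totals the medians of both subunits were negative in both comparisons, from -0.0724 to -0.333. Relative to the median of all genes, the large subunit then stood 0.128 higher in responders and 0.105 higher in the pool. The small subunit stood 0.0361 and 0.0247 higher.

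A ratio of the counts summed over each subunit does not depend on scaling between libraries. Small-subunit counts divided by large-subunit counts gave 0.381, 0.379, 0.387 and 0.385 in untreated libraries and 0.344, 0.346, 0.347 and 0.349 in the pool. The ratio was 0.381, 0.381, 0.382 and 0.374 in bystanders and 0.339, 0.346, 0.337 and 0.336 in responders. Pool and responder libraries thus lay below all untreated and bystander libraries, and within each of these pairs the values overlapped. Without Mrpl52, Mrpl17 and Mrps6, chosen after their values were seen, the mean ratio was 0.390 ± 0.00341 in untreated cells, 0.372 ± 0.00249 in the pool, 0.387 ± 0.00431 in bystanders and 0.367 ± 0.00471 in responders (SD, n = 4 each). The highest responder and pool libraries, at 0.374 and 0.375, were then still below the lowest bystander library, at 0.381.

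**Figure D4:**
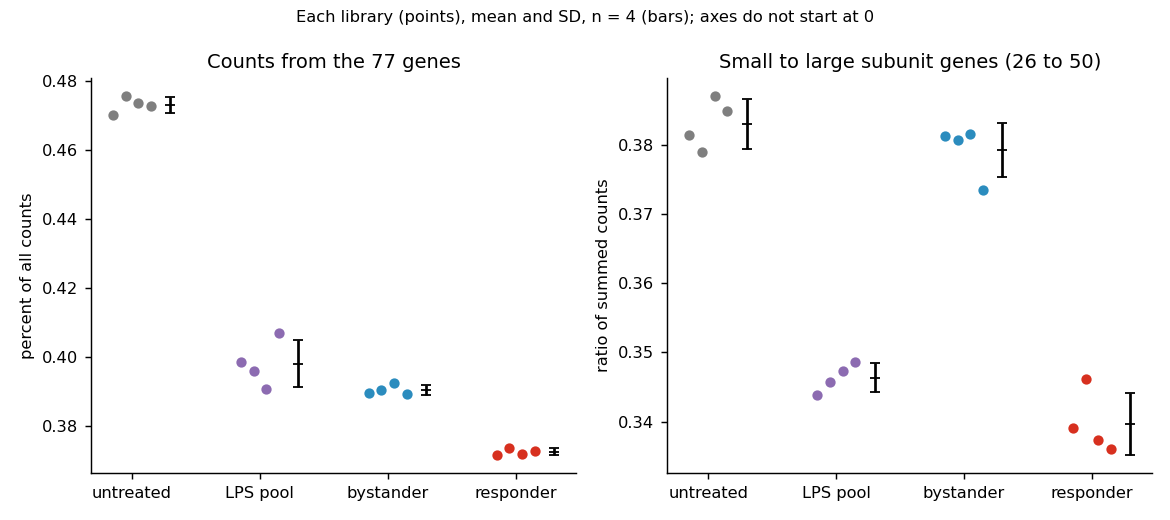
Left, percent of all counts of a library that came from the 77 genes; right, counts of the 26 small-subunit genes divided by those of the 50 large-subunit genes; points are libraries, bars mean and SD (n = 4), and the axes do not start at 0. The share is highest in untreated cells at 0.473% and lowest in responders at 0.372%, an order that changes between the gates when the most abundant genes leave the denominator, and the ratio is lower in pool and responder libraries than in untreated and bystander libraries.

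The members together gave 0.473% ± 0.00229 of all counts in untreated cells, 0.398% ± 0.00683 in the pool, 0.390% ± 0.00143 in bystanders and 0.372% ± 0.000927 in responders (SD, n = 4 each). The share was higher in every untreated library than in any LPS-treated one, and lower in every responder library than in any other. It depends on the most abundant genes, since the top 1% of genes gave 28.3% of the counts in untreated cells, 34.2% in the pool, 30.8% in bystanders and 34.4% in responders. With those genes out of the denominator the share was 0.660% in untreated cells, 0.605% in the pool, 0.564% in bystanders and 0.567% in responders, and the gates overlapped.

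Calls for genes that act with the mitochondrial ribosome are to be read against those of all genes: 34.7% higher and 35.3% lower in responders against bystanders, and 34.1% and 37.8% in the pool against untreated cells. Of 5 subunit proteins that carry other names, 2 were higher in responders than in bystanders and 0 lower: Aurkaip1 (log2 0.14, edgeR adjusted p = 0.000156) and Chchd1 (0.23, edgeR adjusted p = 0.00039), both of the small subunit. With library totals 0 of the 5 were higher and 3 lower, where the median of all genes was -0.2. Ptcd3, also of the small subunit, fell in the pool from 78.9 ± 2.07 to 62.3 ± 1.94 CPM (SD, n = 4 each; log2 -0.34, edgeR adjusted p = 8.95e-13). Of 26 factors that assemble the mitochondrial ribosome, 6 were higher (23.1%) and 8 lower (30.8%) in responders, with a median of -0.0779, and 4 were higher (15.4%) and 10 lower (38.5%) in the pool, with a median of -0.0905. The RNA helicase Ddx28 was highest among them in responders, at 30.6 ± 1.27 CPM against 20.8 ± 0.627 CPM in bystanders (SD, n = 4 each; log2 0.56, edgeR adjusted p = 5.35e-15). Rbfa, a ribosome-binding factor of the small subunit, fell from 35.7, 39.2, 40.0 and 37.0 CPM in untreated cells to 21.9, 23.2, 25.7 and 23.3 CPM in the pool (log2 -0.69, edgeR adjusted p = 7.83e-18).

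Of 15 mitochondrial translation factors, 4 were higher and 4 lower in responders (26.7% each), and 2 were higher (13.3%) and 8 lower (53.3%) in the pool. Lrpprc and Slirp, whose proteins form a complex that stabilises mitochondrial messenger RNAs, went opposite ways in the pool: Lrpprc fell by 0.55 and Slirp rose by 0.76 on the log2 scale (edgeR adjusted p = 6.88e-23 and 6.06e-20). Guf1, a translation elongation factor, measured 43.1 ± 1.46 CPM in bystanders against 28.5 ± 0.978 CPM in responders (SD, n = 4 each; log2 -0.60, edgeR adjusted p = 1.67e-15). Of the 20 genes that charge mitochondrial transfer RNAs, 11 fell (55.0%) and 2 rose (10.0%) in responders, with a median of -0.137, and 11 fell and 0 rose in the pool, with a median of -0.327. Hars2, the histidyl enzyme, fell by 0.73 on the log2 scale in the pool (edgeR adjusted p = 8.18e-19).

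Among 15 tested regulators of mitochondrial transcription, replication and biogenesis, 6 were higher (40.0%) and 5 lower (33.3%) in responders, and 6 were higher and 8 lower (53.3%) in the pool. Myc, a transcription factor of growth, was at 14.1, 14.9, 13.2 and 17.2 CPM in responders and 3.03, 3.09, 3.07 and 2.71 CPM in bystanders (log2 2.32, edgeR adjusted p = 3.62e-28). Esrra, a nuclear receptor of energy metabolism, was also higher in responders (log2 0.78, edgeR adjusted p = 2.52e-30). Tfb2m, the mitochondrial transcription initiation factor, fell from 27.1 ± 1.40 to 11.5 ± 0.635 CPM in the pool (SD, n = 4 each; log2 -1.24, edgeR adjusted p = 1.17e-24). Of the 13 proteins encoded in mitochondrial DNA, the messages this ribosome translates, 1 was higher (7.69%) and 6 lower (46.2%) in responders, and 1 was higher and 8 lower (61.5%) in the pool. Cytochrome b (CYTB) was at 1310, 1370, 1400 and 1330 CPM in responders and 1870, 1900, 1820 and 1830 CPM in bystanders (log2 -0.46, edgeR adjusted p = 8.85e-31). With library totals the lists shifted further down in responders against bystanders: 2 of 26 assembly factors were then higher and 18 lower, 2 of 15 translation factors higher and 8 lower, 0 of 20 charging enzymes higher and 17 lower, 4 of 15 regulators higher and 8 lower, and 0 of 13 mitochondrially encoded genes higher and 9 lower. In the pool against untreated cells they gave 0 assembly factors higher and 23 lower, 1 translation factor higher and 14 lower, 0 charging enzymes higher and 19 lower, 2 regulators higher and 11 lower, and 0 encoded genes higher and 10 lower. The 13 encoded genes gave 1.97% of all counts in untreated cells, 1.45% in the pool, 1.87% in bystanders and 1.44% in responders.

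The proteins of the cytosolic ribosome give a comparison of the same kind. With TMM, 74 of the 81 genes tested (91.4%) rose in responders and 0 fell (median 0.146), and 78 (96.3%) rose and 0 fell in the pool (median 0.33). With library totals these became 7 higher and 30 lower, and 24 higher and 21 lower. Relative to the median of all genes, the cytosolic set stood 0.156 higher in responders and 0.36 higher in the pool, and the mitochondrial set 0.115 and 0.0733 higher. In bystanders against untreated cells, the cytosolic set stood at 0.115 and the mitochondrial set at -0.0966 on the same scale. These are descriptions, and the difference between the sets was not tested.

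**Figure D5:**
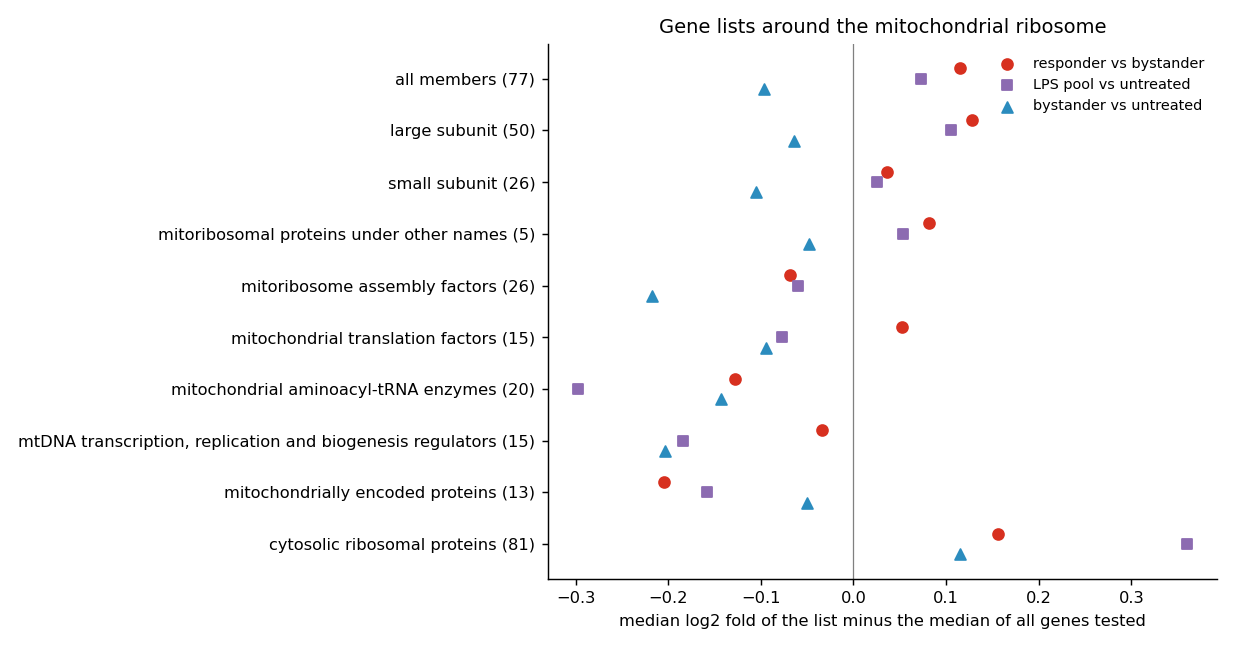
Median log2 fold of each gene list (rows, number of genes tested in brackets) minus the median of all 12589 genes, for responder against bystander (circles), pool against untreated (squares) and bystander against untreated (triangles). The 77 members lie at 0.115, 0.0733 and -0.0966, and the enzymes that charge mitochondrial transfer RNAs lie furthest left in the pool at -0.297; signs are relative to all genes, and under library-total scaling the unadjusted medians of the members are negative.

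Some members share sequence with other counted genes. Exons of 23 of the 77 members overlap exons of another gene in the table, mostly on the opposite strand. Whether the counting used strand is not given in the sources used here, so values of such members are uncertain. Of the genes described above, Mrpl13, Mrpl14, Mrpl18, Mrpl21, Mrpl27, Mrpl49, Mrpl9, Mrps27 and Mrps6 are among them. The shared stretch was 75 bases for Mrpl27, with Eme1, and 506 bases for Mrps27, with 6430562O15Rik, a gene that did not pass the filter on low counts. Eme1 was at log2 0.0106 for responder against bystander and -0.267 for the pool against untreated cells, where Mrpl27 was at 0.41 and 0.63.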

How the data were processed

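RNA-seq was analysed in 16 libraries, 4 in each of 4 groups. The authors deposited a table of raw counts for the genes of all libraries. The submitters' processing notes list HISAT2 2.2.2, featureCounts 2.1.1, fastp 1.1.0 and cutadapt 3.7, with genome GRCm38 (mm10). Annotation, strandedness and multiple matches: not given in the sources used here. Of 27179 Entrez identifiers, 25275 matched a symbol in the RefSeq gene table of GRCm38.p6, and the other 1904 (0.399% of counts) stayed in the tests. The table has 3 empty columns and 0 columns of other samples. No pair of replicates agreed within sampling noise (chi-square per degree of freedom 1.62 to 3.13).

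The fit used edgeR 4.0.16 (R 4.3.3): filterByExpr, TMM scaling, 1 robust quasi-likelihood fit to all 16 libraries with 1 mean per group, two-sided F tests, and Benjamini-Hochberg adjustment over 12589 genes at 0.05. The median biological coefficient of variation was 0.0357. Levels are TMM-scaled CPM. Lengths are exon unions of principal transcripts in GENCODE annotation of the same build, and promoters come from RefSeq (GRCm38.p6). Samples were grouped by their labels, and group means were compared as responder against bystander, pool against untreated, and each gate against untreated. On simulated counts (responder against bystander, 12589 genes), the fit recovered 83% of 100 genes with a log2 change of 0.25. It recovered 100% of 100 genes with a log2 change of 1, and 5.18% of its calls were false. The simulation used bystander means and 1 fixed spread, and changed only these genes, as many up as down. In the data most genes were called, so the simulation does not test the scaling or give the rate of false calls there.

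Labels give the groups the same replicate numbers. Deviations from the group means correlated at 0.605, 0.18, 0.169 and 0.175 between same-numbered untreated and responder libraries. The highest value joins untreated 1 and responder 1, both Stmn2-rich. From the data alone, the numbers were taken as pairs for that comparison, but only in the fit with a replicate block. The p-values in the Results come from fits without pairs. Deviations also correlated between same-numbered pool and bystander libraries (0.391 to 0.475), groups that are not compared here.

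Alternatives were library totals, DESeq2 size factors, the DESeq2 1.42.0 Wald test, no filter, a replicate block, 2-group fits and leaving out each replicate. Fits with and without the 6 Stmn2-rich libraries (at least 20 reads), and without replicate 3 of each group, were added after seeing the data. Named members are the 6 highest and 6 lowest folds of responder against bystander and of pool against untreated, the highest and lowest level per length, and Mrpl12, Mrpl58, Mrps12, Mrps18a, Mrps18b, Mrps18c, Mrps27, Mrps30 and Mrps36. For the other lists they are the 2 smallest p in each comparison, not all printed here. The members and lists were chosen with earlier results of these data known.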

Additional observations from a re-analysis of the deposited data

Results flagged for a closer look

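In 6 of 108 groups of 4 libraries examined, 1 library stood apart from the other 3 by Dixon's test at the 95% level, where chance gives about 1 in 20. Mrpl17 was at 120.8 CPM in bystander replicate 3 and at 117.2 to 117.7 CPM in the other bystander libraries. Mrpl30 was at 68.76 CPM in bystander replicate 1 and at 73.01 to 73.5 CPM in the others. Mrpl49 was at 50.43 CPM in untreated replicate 1 and at 52.88 to 53.0 CPM in the others. Mrpl54 was at 43.57 CPM in pool replicate 4 and at 39.85 to 40.22 CPM in the others. Mrps12 was at 36.57 CPM in untreated replicate 3 and at 33.77 to 34.1 CPM in the others. The ratio of small-subunit to large-subunit counts was 0.3735 in bystander replicate 4 and 0.3807 to 0.3816 in the other bystander libraries.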

How the results depend on the processing

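Scaling decided the direction of the whole set, except for bystander against untreated, which was mostly lower under each scaling. With library totals alone, 12 members were higher and 39 lower for responder against bystander (median log2 fold -0.0848), 7 and 58 for pool against untreated (median -0.285), 6 and 67 for responder against untreated (median -0.363), and 2 and 62 for bystander against untreated (median -0.280). In the same order, the medians of all genes tested were -0.2, -0.358, -0.407 and -0.183 under that scaling. Named members then turned sign for responder against bystander, Mrpl50 at -0.0092, Mrpl58 at -0.165 and Mrps18a at -0.0533, and for pool against untreated, Mrpl1 at -0.111, Mrpl14 at -0.259, Mrpl17 at -0.00598 and Mrpl58 at -0.151. Of these, Mrpl1 and Mrpl58 in the pool went from a higher to a lower call. A further 5 named calls were lost, and 8 values with no call gained one in the lower direction: Mrpl12, Mrpl58, Mrps12 and Mrps17 for responder against bystander, and Mrpl14, Mrps12, Mrps18b and Mrps30 for pool against untreated. All 50 named calls stayed on their side of the threshold with DESeq2 size factors, the DESeq2 Wald test and fits of 2 groups. They also did so in the 10 libraries that were not Stmn2-rich, which still held other neural markers. Every count stayed within 1.5 times in each of these settings. No filter changed 1 of the 50 calls, Mrps36 for responder against bystander (edgeR adjusted p = 0.0521). The 12 libraries without replicate 3, the number with the highest fibroblast markers, also chosen after seeing the data, kept every count within 1.5 times, while Mrps36 lost its call in the pool (adjusted p = 0.068) and Mrps30 there stood at 8.49e-05, not called.

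With only the 6 libraries that hold neural transcripts, where untreated and responder had 1 library each, assumed to vary like the other groups, responder against bystander gave 20 higher and 8 lower (median 0.0791), responder against untreated 18 higher, and bystander against untreated 9 higher and 21 lower. Mrpl12 at 0.00196 and Mrps17 at 0.0648 for responder against bystander, and Mrps30 at 0.028 for pool against untreated, turned sign, none of them called. Of the named calls, 9 were lost. All 9 belong to responder against bystander or to pool against untreated, where 1 side holds 1 library here. The lost calls therefore cannot be assigned to what sets the Stmn2-rich libraries apart rather than to the number of libraries.

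The replicate block gave 41 higher and 14 lower for responder against bystander, 30 and 21 for pool against untreated, 29 and 26 for responder against untreated, where the numbers were taken as pairs, and 15 and 37 for bystander against untreated, and it changed 0 of the 50 named calls. For the other comparisons the same-number correlations were of both signs, from -0.468 to 0.279.

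Leaving out each replicate gave 37 to 42 higher, 11 to 14 lower and a median of 0.0999 to 0.115 for responder against bystander, 30 to 33, 19 to 22 and 0.0329 to 0.0627 for pool against untreated, 27 to 31, 24 to 27 and 0.0158 to 0.0366 for responder against untreated, and 12 to 16, 33 to 36 and -0.0833 to -0.0625 for bystander against untreated. Mrpl12 ran from -0.046 without responder replicate 4 to 0.00207 without bystander replicate 2 for responder against bystander, not called in either fit. Without the top 1% of genes in the denominator, the members' share of counts was 0.6597% in untreated cells, 0.6046% in the pool, 0.5638% in bystanders and 0.5674% in responders. At 134 counts in the thinnest library, depth limits the lowest members, such as Mrps17, most.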
